A study of Mus musculus with 9 samples.

Results

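The 4 primary tumors of the mouse oviduct in this series were described against each other, to separate the expression programs that all of them held from those that differed between them. The members were the 4 libraries whose labels name a primary tumor, out of 9 libraries in all, and every one of the 19435 genes of the deposited table was kept. All 4 tumors had the genotype Dicer1ko/D1693N, in which D1693N is the remaining Dicer1 allele, and none was treated. The other 5 libraries, normal oviducts that were Dicer1+/D1693N or Dicer1+/+, are not compared here. They share the deposited table and its set of genes, each with at least 10 reads over the 9 libraries. Of the 19435 genes, 427 had no read in any tumor and still count in the shares over all genes. The promoter or cell type that drives the knockout, the age of the animals, the site of each tumor within the oviduct, its histology and whether the tumors came from separate animals are not given in the sources used here. The labels do not divide the tumors, each tumor has 1 library, and a difference between tumors has no replicate check. All statements below are descriptions of 4 libraries.

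DICER1 is the RNase III enzyme that cuts miRNA precursors into mature miRNAs. Its RNase IIIb domain, where D1693N lies, frees the strand from the 5' arm of the precursor, and the RNase IIIa domain frees the strand from the 3' arm. The let-7 family comes from the 5' arm and represses growth and embryonic genes such as Hmga2, Lin28b and the Igf2bp genes. Human tumors with mutations of this domain are known for mixed tissue, in which primitive mesenchyme can stand beside cartilage, skeletal muscle or neural elements. A bulk library averages over all cells of a piece of tissue, so fewer cells of a type and less RNA per cell cannot be told apart.

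Values are given as normalized counts, which are reads divided by the library's size factor as held in the deposited values, always in the order tumor 1, 2, 3 and 4. Spread is given as the SD of the deposited log2 values over the 4 tumors. A difference of 1 is close to 2-fold for well-read genes and more than 2-fold for genes with few reads. The 4 libraries held 8732190 to 11267144 counted reads. Genes without a read numbered 1369, 1515, 3053 and 1945, so tumor 3 had the most. The 20 most counted genes took 7.28% to 9.48% of the reads, and the 8 mitochondrial genes in the table took 1.91% of the reads of tumor 1 and between 2.35% and 3.59% of those of tumors 2 to 4. A floor of 3 counts corresponds to at most 3.41 normalized counts in a tumor, and it covers counting error only. Since no molecular identifiers were counted, reads may be copies of the same molecule.

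The labelled tissue was checked against its defining markers. Ovgp1, oviductin, a glycoprotein that oviduct secretory cells release, stood at 8071, 11678, 8061 and 112 normalized counts. It was abundant in tumors 1 to 3 and low in tumor 4. Pax8, a transcription factor of the Müllerian tract, stood at 924, 1231, 413 and 886, so this marker of the lineage was read in all 4 tumors. Foxj1, the regulator of motile cilia, had 244, 15.9, 59.7 and 12.6.

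The typical gene differed by about log2 1 between the highest and the lowest tumor. The median SD over 19435 genes was 0.47 on the log2 scale, with quartiles of 0.303 and 0.727, and the median distance between the highest and the lowest tumor was 1.03. The SD computed from counting error alone had a median of 0.1. Among the 2899 genes with a mean of 9 to 10 the median SD was 0.364 and that from counting was 0.057. At the other end, 492 genes (2.53% of all) differed by at least log2 4, or 16-fold, between the highest and the lowest tumor. Of these 492 genes, 183 were highest in tumor 4, and 253 were lowest in tumor 3. Among all genes with a mean of at least 8, 23.1% to 33.8% per chromosome were highest in tumor 4. The share lowest in tumor 3 was 19.6% to 36.1%. Without tumor 4 the count of genes that differed by at least log2 4 was 192, and without tumor 3 it was 247.

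**Figure D1:**
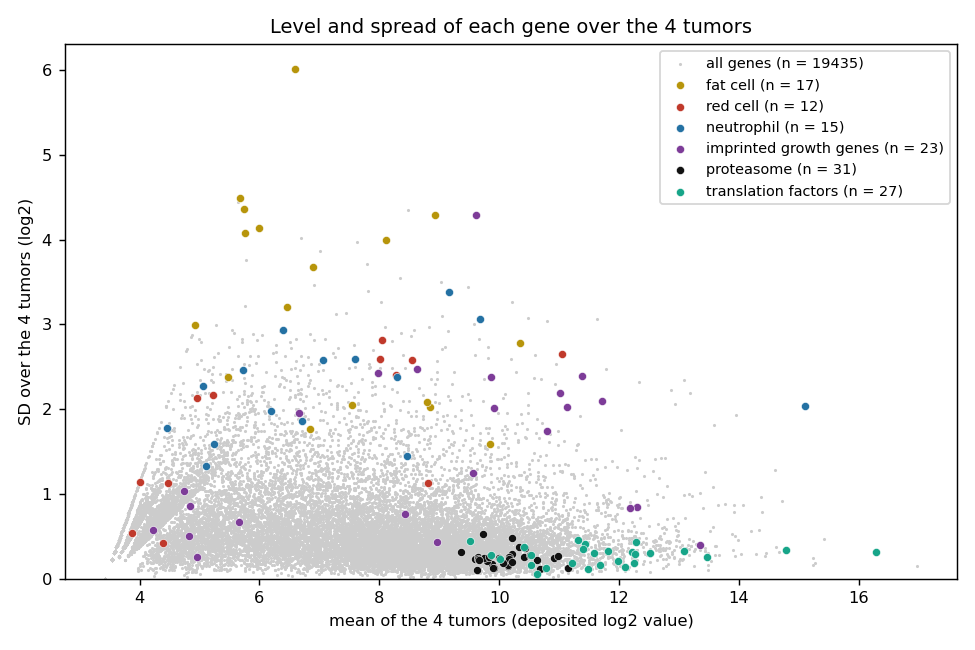
Mean (x axis, deposited log2 value) and SD (y axis, log2) of each of 19435 genes over the 4 tumors, with 6 gene lists coloured. Genes of the proteasome and the translation factors lie along the bottom, with median SDs of 0.24 and 0.29, and genes of fat cells reach an SD of 6.01.

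What the tumors shared was first of all the machinery of the cell. A gene was counted as shared where its mean was at least 8 on the log2 scale and its highest and lowest tumor differed by less than 1. Of 8394 genes with such a mean, 5086 (60.6%) were shared. The share was higher for translation factors (26 of 27), the proteasome (29 of 31), which degrades tagged proteins, and the spliceosome (33 of 35), which removes introns. It was 46 of 58 for ribosomal proteins, 28 of 37 for the nuclear genes of the respiratory chain and 17 of 22 for chromatin regulators. Ribosomal protein genes have many near-identical pseudogenes, and how the authors' counting split such reads is not known.

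The genes with the smallest SD among those with a mean of at least 10 were Ipo5, Idh3b, Sec24b, Mrfap1, Pigt, Ckap4, Eif4a3, Agfg1, Dnaja2 and Eif2s2. Ipo5, an importin that carries proteins into the nucleus, stood at 1896, 1844, 1868 and 1907 normalized counts, with an SD of 0.021. Eif4a3, a core part of the complex that marks exon junctions, stood at 1079.9, 1046, 1081 and 1002. These genes were chosen for their small SD, so the near equality of the 4 tumors in them follows from the choice.

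The most abundant transcripts of the tumors came from mitochondria, translation and collagen. The 25 genes of largest mean held 5 mitochondrial genes (mt-Co1, mt-Cytb, mt-Nd1, mt-Nd5 and mt-Nd4), the elongation factors Eef1a1 and Eef2, and the type I and III collagen chains Col3a1, Col1a1 and Col1a2. The others were Ltf, Tpt1, Actb, Apoe, Ctsd, Hsp90ab1, Ftl1, Yam1, Sparc, Ctsb, Rplp0, Nedd4, C3, Rpsa and Tmsb4x. Per kilobase of exon, the mean level over the tumors was 83467 normalized counts for mt-Co1, a subunit of cytochrome oxidase, and 32620.5 for Eef1a1. On the same scale the level was 5937 for Col1a1, 4043 for Col3a1 and 5325 for Sparc, a collagen-binding protein of the matrix. Col1a1 stood at 32946, 47256, 41698 and 33957 normalized counts and Col3a1 at 38957, 43884, 32849 and 43039. Both collagens were at similar levels in all 4 tumors. In the list of fibrillar collagen and matrix genes, 12 of 31 genes of sufficient level were shared, below the share over all genes. Vcan, a large proteoglycan of embryonic and tumor matrix, stood at 4488, 4669.5, 10536 and 1136, and Col5a3 at 262, 87.4, 10.1 and 1669. These matrix genes moved in opposite ways, with Vcan highest and Col5a3 lowest in tumor 3.

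Not all abundant genes were shared. Ltf, which codes for lactoferrin, an iron-binding protein of secretions and neutrophils, stood at 39350.4, 88000.2, 4586 and 94984 normalized counts. C3, the central protein of complement, stood at 11227, 37952, 2774 and 53112, and Apoe, a lipid carrier made by macrophages among other cells, at 29753, 30128, 7103 and 58952. All 3 genes were lowest in tumor 3.

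Genes of cell division differed about as much as other genes of their level. Of 39 measured proliferation genes 0 stood apart in any tumor, and of those of sufficient level 13 of 20 were shared, beside 60.6% over all genes. The list had a median SD of 0.41, beside 0.404 over all genes with a mean of 8 to 9 and 0.489 over those with a mean of 7 to 8. The mean log2 value of the list was 8.36, 8.07, 8.34 and 7.82. Mki67, a protein of dividing cells, stood at 1544, 944, 2088 and 1163 normalized counts and Top2a, the topoisomerase of replicating DNA, at 1852, 1391, 2141 and 1227. Both were highest in tumor 3. Birc5, which codes for survivin, had the largest SD of the list and stood at 286, 226, 88.9 and 126, with tumor 3 lowest. The 26 replication licensing genes, which open origins and copy DNA, likewise held 0 genes that stood apart and had a median SD of 0.38. Over all 19435 genes 802 stood apart in a tumor, and 19 of the 61 lists held no such gene. A count of 0 therefore does not mark either list.

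Dicer1 itself (ENSMUSG00000041415.10, GRCm38 chromosome 12, 104687742 to 104751952, minus strand) stood at 1283, 742, 1379 and 576 normalized counts. Tumors 1 and 3 were above tumors 2 and 4, and which Dicer1 allele a read came from cannot be seen at the level of gene counts. The miRNA machinery, with Drosha, Dgcr8 and the Argonautes, held 12 of 19 shared genes, near the 60.6% over all genes. Its most variable member was Zcchc11, which codes for TUT4, an enzyme that adds uridine to let-7 precursors, at 2319, 669, 1783 and 382. Tnrc6a, a partner of the Argonautes in silencing, stood at 2657, 1485, 3629 and 1176. All 3 of these genes had tumors 1 and 3 above tumors 2 and 4.

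Among frequent oncogenes and tumor suppressors, 19 of 27 genes of sufficient level were shared, beside 60.6% over all genes. Trp53, which codes for p53, stood at 1019, 1229, 1200.2 and 995 normalized counts and Myc at 313, 308, 233 and 228. The 4 tumors were close in both. Cdkn2a, which codes for p16 and p19ARF, stood at 554, 718, 702 and 136 and was low in tumor 4. Mycn stood at 137, 301, 478 and 889.7, with tumor 4 highest, and Cdkn1a, the p53 target that codes for p21, at 3144, 1513, 798 and 1263, with tumor 1 highest. The list of p53 targets had a median SD of 0.6.

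The differences between tumors fell into a few patterns. A gene was taken to stand apart where 1 tumor was at least log2 2, or 4-fold on the scale of well-read genes, above or below each of the other 3. In tumor 1, 92 genes stood alone high (0.473% of all genes) and 15 alone low (0.0772%). Tumor 2 had 116 genes alone high (0.597%) and 2 alone low (0.0103%). In tumor 3 the counts were 56 high (0.288%) and 159 low (0.818%), and in tumor 4 they were 188 high (0.967%) and 212 low (1.09%). On the deposited scale tumor 4 thus had the most genes apart from the others, and tumor 3 was the tumor with more low than high genes by the widest margin. On log2 of the normalized count plus 1 the order of the totals turned by a narrow margin, with 229 high and 810 low genes in tumor 3 and 378 high and 657 low genes in tumor 4. Genes for which a pair of tumors stood above the other pair by the same gap were counted as well, by a rule added after the data were seen. There were 135 for tumors 2 and 4 (0.695%), against 16 for tumors 1 and 2 (0.0823%), 17 for tumors 1 and 3 (0.0875%), 13 for tumors 1 and 4 (0.0669%), 14 for tumors 2 and 3 (0.0720%) and 2 for tumors 3 and 4 (0.0103%).

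**Figure D2:**
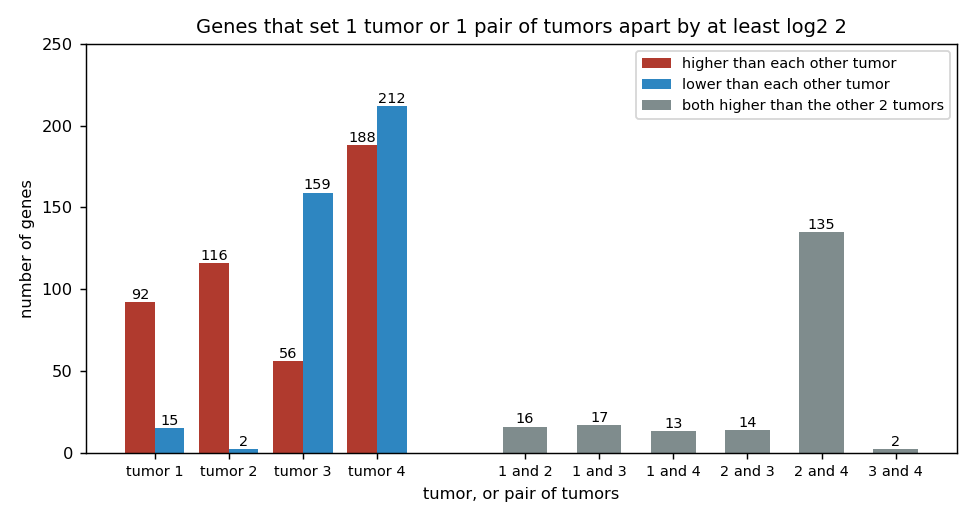
Number of genes (y axis) that stood at least log2 2 above (red) or below (blue) each other tumor, and number for which a pair of tumors stood above the other pair (grey). Tumor 4 has 188 high and 212 low genes, and tumors 2 and 4 form the pair with the most shared high genes, 135.

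Over all genes, tumors 3 and 4 were the least alike. Across 19435 genes Pearson's r was 0.864 between them and 0.896 between tumors 1 and 4. The other 4 pairs lay between 0.913 and 0.929. Between tumors 3 and 4, 1931 genes differed by at least log2 2, and between tumors 1 and 2 there were 739. Genes are not independent replicates, and these values describe the libraries only.

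Of 61 gene lists, 26 for cell types and 35 for programs, 21 had a median SD of at least 1. Fat cell genes had the largest median SD, 3.21, followed by neutrophil genes with 2.27 and red cell genes with 2.15. Complement had 1.61, oviduct secretory epithelium 1.55 and smooth muscle 1.39. The list mean was lowest in tumor 3 for 28 lists and lowest in tumor 4 for 25. Some genes stand in more than 1 list, such as Ltf, Spp1 and Cfd.

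**Figure D3:**
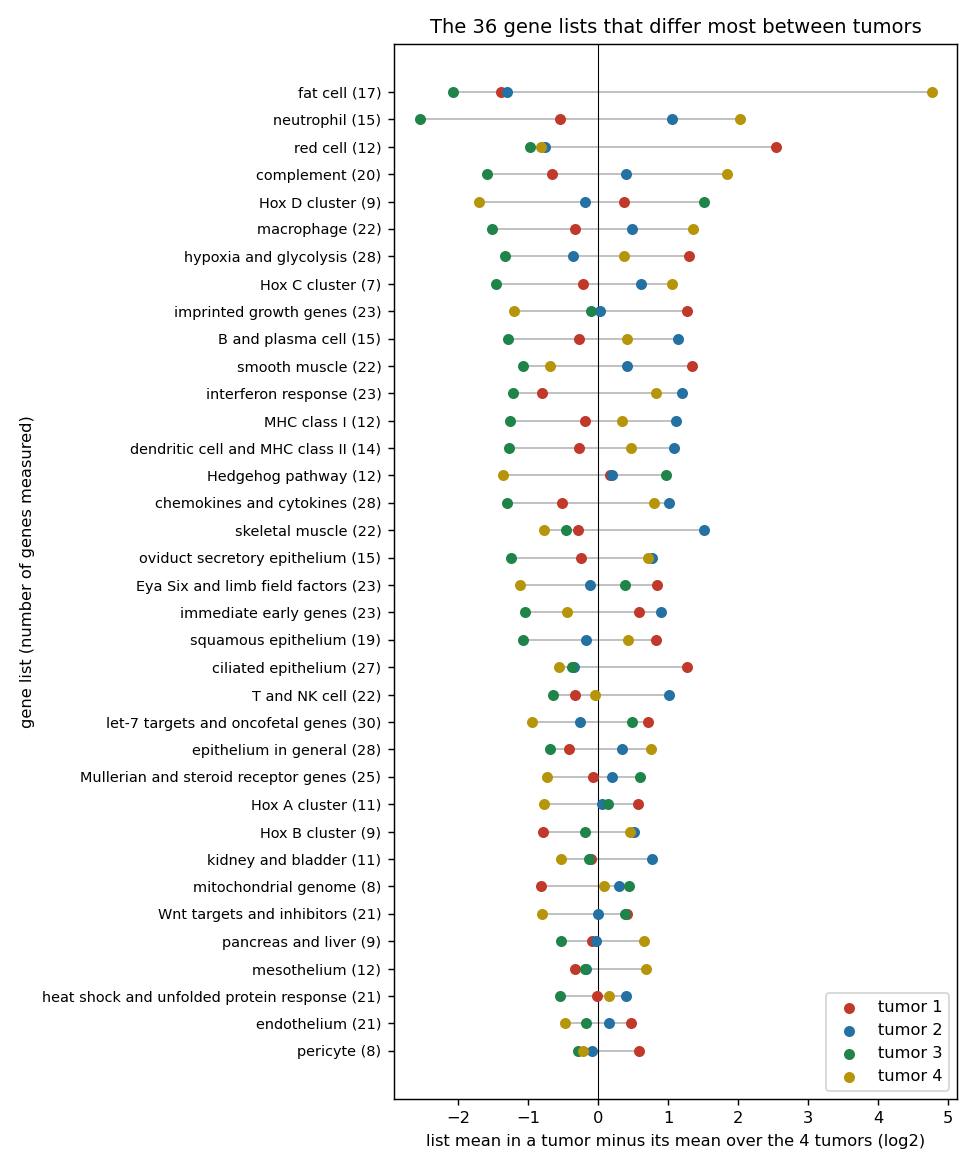
Mean log2 value of a gene list in each tumor minus the mean over the 4 tumors (x axis) for the 36 lists (y axis, number of measured genes in brackets) with the widest distance between tumors. Fat cell genes lie far to the right in tumor 4 (list mean 11.99), red cell genes in tumor 1 (9.18), and most immune lists have tumor 3 at the left end.

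Tumor 1 was marked by red cell and ciliary genes and by single oncofetal genes. In the red cell list 8 of 12 genes stood alone high there, beside 0.473% of all genes. Hbb-bs, an adult beta globin, stood at 32048, 1104, 524 and 1021 normalized counts and Alas2, the first enzyme of haem synthesis in red cells, at 3721, 89.7, 113 and 61. Slc4a1, the anion exchanger of the red cell membrane, stood at 255, 3.4, 0 and 2.1. The globin genes Hbb-bs, Hbb-bt, Hba-a1 and Hba-a2 took 0.417% of the reads of tumor 1 and at most 0.014% in the others. The globins are near-identical copies in pairs, and the split of reads within a pair is uncertain. The mean log2 value of the list was 9.18, 5.88, 5.66 and 5.82. The number of red cells in the tissue was not measured, and whether they brought these transcripts was not tested.

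The promoters of Hbb-bs, Hba-a1 and Alas2 are shown because these genes were high together in tumor 1 and because erythroid genes are known targets of the factor GATA1. Each window runs from 250 bases before to 50 after the start of the gene (RefSeq, GRCm38.p6), 5′ to 3′ on the gene's strand, with matches to AGATAA or TGATAA on either strand in capitals.
Hbb-bs (chr7:103827879-103828178, minus strand): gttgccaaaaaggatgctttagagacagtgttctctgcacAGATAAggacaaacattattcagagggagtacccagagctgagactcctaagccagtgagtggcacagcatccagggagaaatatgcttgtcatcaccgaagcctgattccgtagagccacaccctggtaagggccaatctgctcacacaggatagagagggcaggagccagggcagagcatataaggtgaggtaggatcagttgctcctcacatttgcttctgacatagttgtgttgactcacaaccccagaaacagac
Hba-a1 (chr11:32283422-32283721, plus strand): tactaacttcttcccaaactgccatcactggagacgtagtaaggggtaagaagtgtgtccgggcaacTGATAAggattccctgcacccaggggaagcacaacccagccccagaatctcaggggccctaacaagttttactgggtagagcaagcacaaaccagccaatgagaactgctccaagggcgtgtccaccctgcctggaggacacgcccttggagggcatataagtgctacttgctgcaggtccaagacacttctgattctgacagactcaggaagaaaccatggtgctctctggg
Alas2 (chrX:150547167-150547466, plus strand): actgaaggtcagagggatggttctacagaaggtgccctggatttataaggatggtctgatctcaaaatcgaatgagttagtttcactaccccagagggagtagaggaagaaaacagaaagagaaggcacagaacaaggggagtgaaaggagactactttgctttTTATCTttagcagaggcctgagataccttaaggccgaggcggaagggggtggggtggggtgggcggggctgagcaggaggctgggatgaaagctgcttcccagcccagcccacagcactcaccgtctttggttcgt
Each of these windows held 1 match. Of the 12 measured red cell genes 7 had a promoter in the table, and 5 of the 7 held a match, while 18.6% of all 32851 promoters did. A match is a string of letters and does not show that a factor binds there.

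The oncofetal genes of tumor 1 were led by Lin28b, an RNA-binding protein that blocks let-7 maturation, at 538, 4.5, 2.3 and 0 normalized counts. The fetal mRNA-binding proteins Igf2bp1 and Igf2bp3 stood at 586, 22.7, 51.8 and 23.1 and at 409.8, 23.8, 24.8 and 26.3. Tumor 1 was far above the others in all 3 genes, which are known let-7 targets. Not every gene of the list followed. Hmga2, a chromatin protein of embryonic cells, stood at 3004, 1472, 4631 and 435, and Igf2bp2 at 2316, 1426, 3018 and 793, both highest in tumor 3. Trim71, another let-7 target, stood at 175, 82.9, 136 and 21. Sall4 and Prtg, genes of early embryonic cells, stood at 341, 48.8, 455 and 0 and at 822, 146, 862 and 5.3, with tumors 1 and 3 high and tumor 4 at the bottom. Of the 30 let-7 target and oncofetal genes, 3 stood alone high in tumor 1, beside 0.473% of all genes, and 4 alone low in tumor 4, beside 1.09%. The list means were 8.55, 7.59, 8.33 and 6.9. In the same list 12 genes were highest in tumor 1 and 15 in tumor 3, so tumor 1 was not highest throughout. Among all genes with a mean of at least 8, the median share over autosomes was 28.4% highest in tumor 1 and 30.6% in tumor 3.

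Genes of ciliated cells had fewer reads in tumors 2 to 4 than in tumor 1, with list means of 6.40, 4.79, 4.76 and 4.57. In that list 7 of 27 genes stood alone high in tumor 1, beside 0.473% of all genes. Dnah3 and Dnah12, dynein heavy chains of the ciliary axoneme, stood at 116, 2.3, 0 and 0 and at 113, 1.1, 0 and 0 normalized counts, and Ccdc153, another gene of ciliated cells, at 67, 0, 0 and 0. The basal keratin Krt5 stood at 269, 0, 0 and 1.1 and Krt6a at 153, 0, 0 and 23.1. Krt5 was read almost only in tumor 1, where 4 of the 19 measured squamous genes stood alone high, beside 0.473% of all genes.

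Tumor 1 also had the highest levels of smooth muscle and of hypoxia genes. Acta2, smooth muscle actin, stood at 31269.6, 7958, 628 and 4286 normalized counts and Myh11, the smooth muscle myosin, at 13837, 3434, 360.3 and 777. The list mean was 9.96, 9.03, 7.55 and 7.94, so tumor 1 was at the top and tumor 3 at the bottom. Adm, which codes for the hypoxia-induced hormone adrenomedullin, stood at 2033, 63.6, 20.3 and 135. Slc2a3, a glucose transporter, stood at 5032, 1206, 1439 and 124 and Egln3, an oxygen sensor, at 2528, 479, 77.7 and 2089.6. The hypoxia and glycolysis list had means of 11.60, 9.94, 8.97 and 10.67. Tumor 1 was highest and tumor 3 lowest in the list as a whole, while Slc2a3 was lowest in tumor 4.

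Mitochondrial transcripts of tumor 1 were uneven. mt-Nd1, a subunit of complex I, stood at 10658, 37460.3, 44242 and 30355 normalized counts, while mt-Co1 stood at 135764, 122834, 143612 and 113616. Tumor 1 was thus the lowest in mt-Nd1 and within the range of the others in mt-Co1. Of the genes alone low in tumor 1, those of widest gap with a highest value of at least 8 on the log2 scale were Gpr128, Aplnr, Slfn9, Cx3cr1 and Hs3st1. Aplnr, the apelin receptor of endothelial cells, stood at 51.5, 584, 775 and 444. Cx3cr1, the fractalkine receptor of macrophages and other white cells, stood at 21.4, 418, 217 and 429.

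Tumor 2 was marked by immunoglobulin genes. Of its 116 genes alone high, which were 0.597% of all genes, 58 were among the 173 immunoglobulin genes of the table. Igha, the constant region of IgA, stood at 954, 24391, 82.2 and 784 normalized counts, and Ighg1, that of IgG1, at 109, 5337, 0 and 18.9. Igkc, the constant region of kappa light chains, stood at 3514, 26951, 387 and 3846. Ighm, the constant region of IgM, went another way at 4375, 3634, 696 and 6581, with tumor 4 highest. Igj, which codes for the chain that joins IgA and IgM units, stood at 1019, 6506, 61.9 and 1172, and Mzb1, a chaperone of antibody-secreting cells, at 11.7, 211, 14.6 and 112.

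The variable genes of the immunoglobulins were read broadly in tumor 2. Of 77 heavy chain variable genes 58, 74, 9 and 41 had a read, with 1632, 10889, 110 and 2045 reads in all. The leading heavy chain gene of tumor 2, Ighv9-4, took 20.5% of these reads (95% Wilson interval 19.7% to 21.2%). Of 77 kappa variable genes, Igkv9-120 led in tumor 2 with 27.8% of 17952 reads (27.1% to 28.4%). Igkv9-120 stood at 53.4, 5659, 0 and 8.4 normalized counts. In tumor 1 the leading genes were Ighv1-53 with 19.4% (17.6% to 21.4%) and Igkv3-2 with 23.4% (21.8% to 25%). The leading genes thus differed between tumors 1 and 2, while Igkv3-2 led in tumor 4 as well, with 22.5% (21.1% to 24.0%). Variable genes are close copies of each other, so the share of a single gene is uncertain beyond counting error.

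Tumor 2 also held other genes alone high, among them genes of developing muscle. Kap, a gene known from mouse kidney, stood at 169, 8927, 251 and 7.4 normalized counts. Akr1c18, which inactivates progesterone, stood at 82.5, 3326, 63 and 136 and Glycam1, a mucin-like protein, at 0, 576, 0 and 1.1. In the skeletal muscle list 5 of 22 genes stood alone high, beside 0.597% of all genes. Myh3, the embryonic myosin of skeletal muscle, stood at 0, 409.9, 3.4 and 1.1, Actc1, an actin of heart and developing muscle, at 11.7, 502, 3.4 and 2.1, and Tnnc2, fast troponin C, at 3.9, 124, 0 and 0. Myog, a factor of muscle differentiation, stood at 2.9, 116, 33.8 and 2.1. Only Nnat and Nova1 stood alone low. Nnat, an imprinted gene of neural and fetal tissue, stood at 3282, 62.5, 1584 and 1722, and Nova1, an RNA-binding splicing factor of neurons, at 267, 20.4, 153 and 185.

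Tumor 2 was also highest in lymphocyte and antigen presentation genes. The T and NK cell list had means of 5.34, 6.68, 5.02 and 5.63 and the MHC class I list 10.04, 11.34, 8.98 and 10.57. Cd3g, a chain of the T cell receptor complex, stood at 16.5, 181, 7.9 and 14.7 normalized counts. H2-K1, a class I heavy chain, stood at 4732, 17490.1, 1795 and 9822, and H2-Aa, a class II chain, at 2055, 7114, 698 and 2193. In all 3 genes tumor 2 was highest and tumor 3 lowest. Class I genes are a family of close copies. Immediate early genes, which respond to stimuli and tissue handling within minutes, also differed, with list means of 10.45, 10.76, 8.82 and 9.41. Fosb stood at 1391, 7036, 1583 and 359, and the part of handling in this was not tested.

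Single neural-type genes and posterior Hox genes were high in tumor 3. The gene with the widest upward gap was Grin3a, a subunit of the NMDA receptor, at 12.6, 5.7, 467 and 0 normalized counts. Lsamp, an adhesion protein of neurons, stood at 2.9, 3.4, 275 and 0, and Dcx, a microtubule protein of migrating neurons, at 63.1, 182, 1148 and 0. Snap25 and Syt1, which serve the release of synaptic vesicles, stood at 0, 3.4, 102 and 2.1 and at 20.4, 46.6, 397 and 0. Dcx, Snap25 and Syt1 were the 3 of 18 measured neural genes that stood alone high in tumor 3, beside 0.288% of all genes. The list as a whole did not follow, with means of 5.50, 5.06, 5.36 and 4.87. In it 9 genes were highest in tumor 1 and 4 in tumor 3. Among all genes with a mean of at least 8, the median share over autosomes was 28.4% and 30.6%. Elavl4, an RNA-binding protein of neurons, stood at 159, 7.9, 47.3 and 0, highest in tumor 1. The median of the means of the neural genes was 5.17, a low level.

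Receptors of neural growth factors were high in tumor 3 as well. Ntrk3, a neurotrophin receptor, stood at 104, 28.4, 628 and 15.8 normalized counts and Ntrk2 at 2007, 1105, 5210.5 and 430.1. Gfra2 and Gfra3, co-receptors for ligands of the GDNF family, stood at 85.5, 126, 981 and 63.1 and at 99.1, 61.3, 531 and 0. All 4 of these receptors were highest in tumor 3 and lowest in tumor 4. The other leading genes of tumor 3 included AF529169, Myrf, Galnt5 and Lingo1. Myrf, a regulator of myelin genes, stood at 355, 706, 5303 and 388.

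The 159 genes alone low in tumor 3 included genes of white cells. In the neutrophil list 5 of 15 genes stood alone low there, beside 0.818% of all genes. S100a8, a calcium-binding protein of neutrophils, stood at 409.8, 2963, 6.8 and 3645 normalized counts, and Cxcl2, a chemokine that attracts neutrophils, at 189, 358, 0 and 356. Ppbp, a chemokine of platelets, stood at 212, 275, 0 and 854. Ptprc, which codes for the pan-leukocyte antigen CD45, stood at 312, 1150.3, 239.8 and 1178, so tumors 1 and 3 were below tumors 2 and 4. Itgam, an integrin of macrophages and neutrophils, stood at 406, 685, 69.8 and 1707. The neutrophil list had means of 6.81, 8.40, 4.80 and 9.38 and the macrophage list 9.40, 10.22, 8.22 and 11.09, both lowest in tumor 3.

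Smooth muscle genes were low in tumor 3 too, where 4 of 22 stood alone low, beside 0.818% of all genes. Tagln, an actin-binding protein of smooth muscle, stood at 15796, 5349.7, 815 and 4354 normalized counts and Cnn1, calponin, at 1766, 1047, 60.8 and 378. The pericyte genes Rgs5 and Notch3 differed less, at 2795, 3345, 2052 and 2227 and at 1231, 915, 1254 and 916. Higd1b, another pericyte gene, stood at 58.3, 52.2, 0 and 58.9 and was alone low in tumor 3. The pericyte list had means of 9.55, 8.88, 8.67 and 8.75, and 5 of its 8 genes were lowest in tumor 3. Among all genes with a mean of at least 8, that share was 19.6% to 36.1% per chromosome.

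Tumor 4 was marked above all by fat genes. In the fat cell list 16 of 17 genes stood alone high there, beside 0.967% of all genes. Adipoq, which codes for the fat hormone adiponectin, stood at 0, 0, 0 and 5428 normalized counts, a level of at least 1593 times that of 3 counts. Cfd, adipsin, stood at 0, 1.1, 0 and 49285, and Plin1, which coats lipid droplets, at 1.0, 0, 0 and 4945. Lep, which codes for leptin, was read in tumor 4 alone, at 0, 0, 0 and 660.4. The list means were 5.83, 5.92, 5.15 and 11.99. Cyp2e1, a cytochrome P450, stood at 0, 0, 0 and 5090.0, Car3, a carbonic anhydrase of fat and muscle, at 50.5, 409.9, 36 and 34014, and Fabp4, a fatty acid carrier, at 83.5, 51.1, 27 and 17038. Pparg, the master regulator of fat cells, stood at 70.9, 57.9, 19.1 and 640.5. Whether fat tissue beside the tumor was part of the piece is not given in the sources used here.

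Macrophage, granulocyte and complement genes were also high in tumor 4. Cd163, a scavenger receptor of resident macrophages, stood at 2.9, 1.1, 13.5 and 713 normalized counts. Mpo and Elane, granule proteins of immature neutrophils, stood at 1.9, 4.5, 0 and 321 and at 1.0, 0, 0 and 117, and Camp, cathelicidin, at 5.8, 10.2, 3.4 and 657. In the other tumors each of these 4 genes had at most 13.5. In the complement list 5 of 20 genes stood alone high, beside 0.967% of all genes, among them Cfd, which also stands in the fat cell list. C4b stood at 461, 778, 56.3 and 11827, and C6, part of the membrane attack complex, at 0, 17, 5.6 and 346. Fat, macrophage and complement genes were high in the same library, and which cells held them was not measured.

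The 212 genes alone low in tumor 4 included developmental regulators. The 5 with the widest gaps were Dlk1, Ovgp1, Col26a1, Mybpc1 and Hoxa13. Six2, a factor of kidney and limb mesenchyme, stood at 646, 265, 243 and 0 normalized counts and Osr2, a zinc finger factor of limb and palate, at 1907, 1658, 2214 and 54.7. Eya1, a partner of Six2 and its relatives, stood at 324, 98.8, 753 and 4.2. Sox11, a factor of embryonic progenitors, stood at 3004, 945, 3666 and 116. In the list of limb field factors, which holds these genes, 4 of 23 genes stood alone low in tumor 4, beside 1.09% of all genes. Tbx3, a T-box factor of limb and genital tract, stood at 2590.0, 1368, 2865 and 229, and Isl1, a LIM homeobox factor, at 607, 235, 2070.5 and 2.1.

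Genes of signalling pathways were also low in tumor 4. Of 12 Hedgehog pathway genes 3 stood alone low in tumor 4, beside 1.09% of all genes. Gli1, the transcription factor that rises with pathway activity, stood at 409, 459, 706 and 41 normalized counts, and Hhip, an inhibitor that is itself a target, at 134, 120.4, 192 and 0. Ptch1, the receptor, stood at 1024.5, 546, 1639 and 415, and Ihh, a ligand made by epithelia, at 33, 441, 404 and 4.2. The ligand was high in tumors 2 and 3 and near the floor in tumor 4. Among Wnt genes 4 of 21 stood alone low in tumor 4, beside the same 1.09%. Lef1, a nuclear effector and target, stood at 233, 149.9, 365 and 11.6, Dkk2, an inhibitor, at 1602, 561, 1772 and 88.3, and Rspo3, an agonist, at 403, 264, 905 and 22.1. Notch pathway genes differed less, with a median SD of 0.33. Of the 14 measured, 0 stood apart in any tumor, beside 802 of all 19435 genes. As 19 of the 61 lists held no such gene, this 0 does not mark the list. In the BMP and TGF-beta list 3 of 23 genes stood alone low in tumor 4 and 2 alone high, beside 1.09% and 0.967% of all genes. Bmp4 stood at 752, 311, 1354 and 58.9 and its antagonist Grem1 at 9.7, 14.8, 24.8 and 341. This ligand and this antagonist were opposite in tumor 4.

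Other mesenchymal genes were low in tumor 4 only in part. Vim, which codes for vimentin, stood at 9539.5, 7380.1, 5799 and 7996 normalized counts, and Pdgfra, a growth factor receptor of fibroblasts, at 4538, 2093, 6859.9 and 1089.5. Fgf10, a growth factor of mesenchyme, stood at 17.5, 0, 19.1 and 263, and Dpt, a matrix protein of fibroblasts, at 458, 94.3, 166 and 2317. Vim was close in the 4 tumors, Pdgfra was lowest in tumor 4, and Fgf10 and Dpt were highest there. The list of fibroblast and mesenchyme genes had means of 9.64, 9.27, 9.33 and 9.0, lowest in tumor 4.

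Tumors 2 and 4 shared 135 high genes, among them chemokine and interferon response genes and secreted proteins of epithelium. Sprr2b, a small proline-rich protein of epithelial barriers, stood at 2.9, 1824, 3.4 and 2468 normalized counts and Olfm4, olfactomedin 4, at 52.4, 902, 0 and 3369.5. Cxcl5, a neutrophil-attracting chemokine, stood at 104, 3644, 18 and 4573, and Saa3, an acute phase protein, at 9.7, 329, 0 and 2033. Chil1, a chitinase-like protein, stood at 114, 3943, 54 and 2541, and Lcn2, lipocalin 2, at 3379, 40811, 1428 and 28706. Tumors 2 and 4 were above tumors 1 and 3 in each of these genes. The Sprr2 genes are a family of close copies, and their separate values are uncertain. In the chemokine and cytokine list 6 of 28 genes had this pattern, and in the interferon response list 7 of 23, beside 0.695% of all genes.

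The interferon genes were Oas2, which senses double-stranded RNA, at 89.3, 596, 11.3 and 976 normalized counts, and Irf7, a factor of the response, at 169.9, 1069, 72.1 and 851. Isg15, a ubiquitin-like protein, stood at 66, 512, 51.8 and 379. Its promoter is shown because these genes were high together in tumors 2 and 4, with matches on either strand to GAAA, any 2 bases and GAAA again, a pattern to which interferon factors are known to bind, in capitals (RefSeq, GRCm38.p6, the same window as above).
Isg15 (chr4:156200769-156201068, minus strand): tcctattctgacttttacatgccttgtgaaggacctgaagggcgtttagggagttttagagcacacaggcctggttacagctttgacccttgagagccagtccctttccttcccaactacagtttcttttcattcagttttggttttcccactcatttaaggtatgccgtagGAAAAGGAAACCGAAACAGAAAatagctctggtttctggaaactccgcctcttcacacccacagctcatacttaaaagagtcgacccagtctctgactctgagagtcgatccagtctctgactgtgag
The window held 3 matches, which may overlap. Of 23 measured interferon genes 18 had a promoter in the table, and 10 of the 18 held a match, while 3.4% of all 32851 promoters did. As a comparison, 0 of the 13 fat cell genes with a promoter held one.

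Epithelial genes in general were high in the same pair of tumors, but by less. Epcam, an adhesion protein of epithelia, stood at 1274, 2597, 1028 and 4357 normalized counts and Cdh1, E-cadherin, at 1769, 2521, 1476 and 4114. Krt7, a keratin of simple epithelium, stood at 1300.3, 1836, 499.9 and 8889, while Krt18 was close in the 4 tumors, at 3582, 3108, 2404 and 3527. The list had means of 8.88, 9.64, 8.62 and 10.06, and the oviduct secretory list 10.50, 11.51, 9.49 and 11.45. The secretory list mean was near equal in tumors 2 and 4 although Ovgp1 was not. Clu, clusterin, stood at 3102, 21622, 1723 and 31932 and Spp1, osteopontin, at 6872, 37610.2, 2736 and 31947. Of the 15 measured genes of the secretory list, 8 were highest in tumor 4 and 6 in tumor 2. Among all genes with a mean of at least 8, the median share over autosomes was 28.1% and 12.7%. The part of white cells in this pattern was not tested, with Ptprc above tumors 1 and 3 in the same pair.

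**Figure D4:**
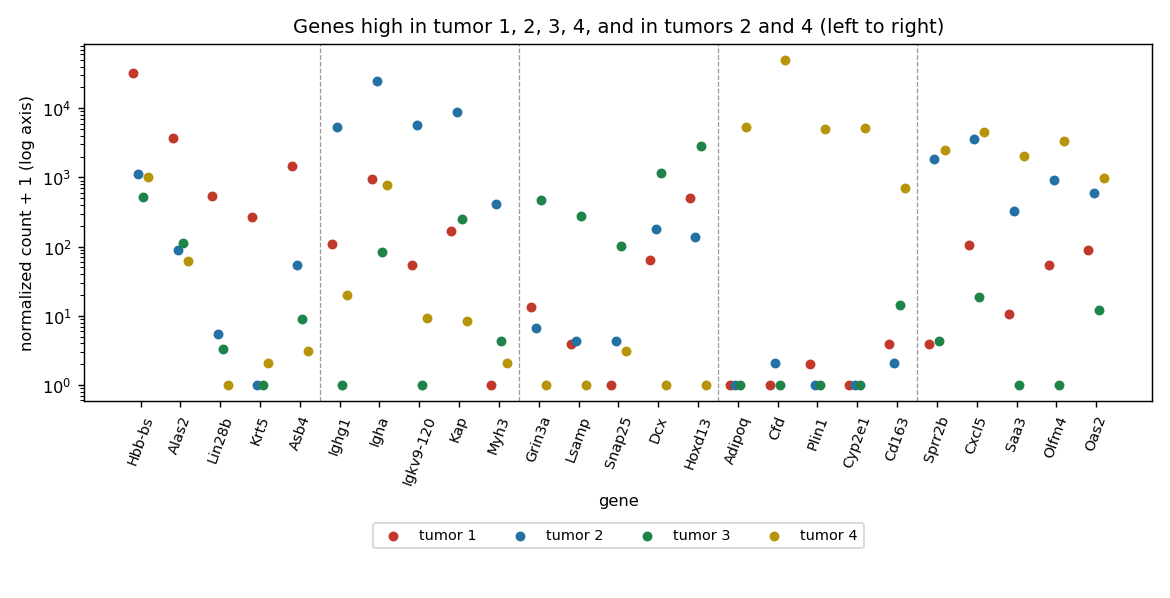
Normalized count plus 1 (y axis, log scale) of 25 genes (x axis) in the 4 tumors, 1 point per tumor, in blocks for genes high in tumor 1, 2, 3, 4 and in both 2 and 4. In the block for tumor 4, Adipoq has 5428 normalized counts in tumor 4 and 0 in the others, and in the last block tumors 2 and 4 lie together above tumors 1 and 3.

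Imprinted genes, of which cells use the copy from the mother or from the father, varied more than most. The list of 23 measured genes had a median SD of 1.25. Of the 23, 10 differed by at least log2 4, beside 2.53% of all genes. In tumor 4, 6 of the 23 stood alone low, beside 1.09% of all genes. The pattern differed by locus.

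At the Dlk1-Meg3 locus the paternally and the maternally used genes varied separately. Dlk1 (ENSMUSG00000040856.17, GRCm38 chromosome 12, 109452823 to 109463336, plus strand), a paternally expressed inhibitor of differentiation, stood at 19984, 1082, 1161 and 1.1 normalized counts. It spanned from the level of abundant genes in tumor 1 to 1 read in tumor 4. Meg3 (GRCm38 chromosome 12, 109541001 to 109571726, plus strand), a maternally expressed noncoding RNA, stood at 1496, 547, 14.6 and 873, and Rian (GRCm38 chromosome 12, 109603940 to 109661716, plus strand), the next noncoding RNA, at 666, 534, 4.5 and 490.1. Both noncoding RNAs were low in tumor 3, where Dlk1 was at the level of tumor 2, and both were well read in tumor 4, where Dlk1 had 1 read. Mirg, further along the same chromosome, stood at 12.6, 15.9, 2.3 and 17.9, and the paternally expressed Rtl1 at 36.9, 19.3, 5.6 and 0, too few reads to say more than that Mirg was lowest in tumor 3 and Rtl1 lowest in tumor 4.

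At the Igf2-H19 locus both genes were high in tumor 1 and low in tumor 4. Igf2 (GRCm38 chromosome 7, 142650766 to 142666816, minus strand), the paternally expressed fetal growth factor, stood at 7487, 4495, 2229 and 218 normalized counts, and H19 (GRCm38 chromosome 7, 142575529 to 142578143, minus strand), the maternally expressed noncoding RNA, at 17820.3, 6374, 1650.5 and 644. The order of the 4 tumors was the same for both genes, although they are used from opposite parental copies. Cdkn1c, a maternally expressed inhibitor of the cell cycle, stood at 3039, 2711, 4027 and 273, low in tumor 4 alone.

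Of the paternally expressed genes of other loci, Mest, Peg3 and Usp29 were low in tumor 4, while Nnat, given above, was not. Mest (GRCm38 chromosome 6, 30723547 to 30748465, plus strand) stood at 7770.0, 4922, 5768 and 204 normalized counts, Peg3 at 5940.4, 2522, 5630.5 and 278 and its neighbour Usp29 at 322, 104, 149 and 1.1. Peg10, a gene derived from a retrotransposon, went another way at 7082, 418, 294 and 873, with tumor 1 alone high. Its neighbour Sgce, which starts next to it, stood at 730.3, 346, 421 and 476 and did not share that height, while Asb4, further along the same chromosome (GRCm38 chromosome 6, 5383386 to 5433022, plus strand), stood at 1443, 53.4, 7.9 and 2.1. Gnas was close in the 4 tumors, at 14739.9, 10103, 10821 and 7467.

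The miRNAs that lie in these genes are shown because their hosts varied strongly between tumors in a model with a mutated miRNA enzyme. Mature miRNAs were not measured in these libraries. The 6 hosts H19, Igf2, Mest, Meg3, Rian and Mirg hold 21 hairpins with 40 mature miRNAs and 39 different seeds, and only mmu-miR-453 and mmu-miR-496a-5p, both in Mirg, share a seed. Sequences are from RefSeq (GRCm38.p6), 5′ to 3′, with the seed (bases 2 to 8) in capitals.
mmu-miR-675-5p, in an exon of H19 (chr7:142577112-142577133, minus strand): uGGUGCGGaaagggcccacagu
mmu-miR-675-3p, from the other arm: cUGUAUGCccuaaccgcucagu
mmu-miR-483-5p, in an intron of Igf2 (chr7:142654968-142654989, minus strand): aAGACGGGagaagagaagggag
mmu-miR-335-5p, in an intron of Mest (chr6:30741314-30741336, plus strand): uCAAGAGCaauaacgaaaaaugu
mmu-miR-770-5p, in an exon of Meg3 (chr12:109563710-109563731, plus strand): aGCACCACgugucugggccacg
mmu-miR-341-3p, in an intron of Rian (chr12:109611556-109611576, plus strand): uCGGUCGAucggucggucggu
mmu-miR-370-3p, in an intron of Rian (chr12:109618305-109618326, plus strand): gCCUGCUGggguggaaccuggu
mmu-miR-134-5p, in an exon of Mirg (chr12:109734145-109734166, plus strand): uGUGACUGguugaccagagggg
The hosts of miR-770, miR-341 and miR-370 were low in tumor 3, and those of miR-335 and miR-483 in tumor 4. Poly-A counts of a host do not give the level of its miRNAs.

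**Figure D5:**
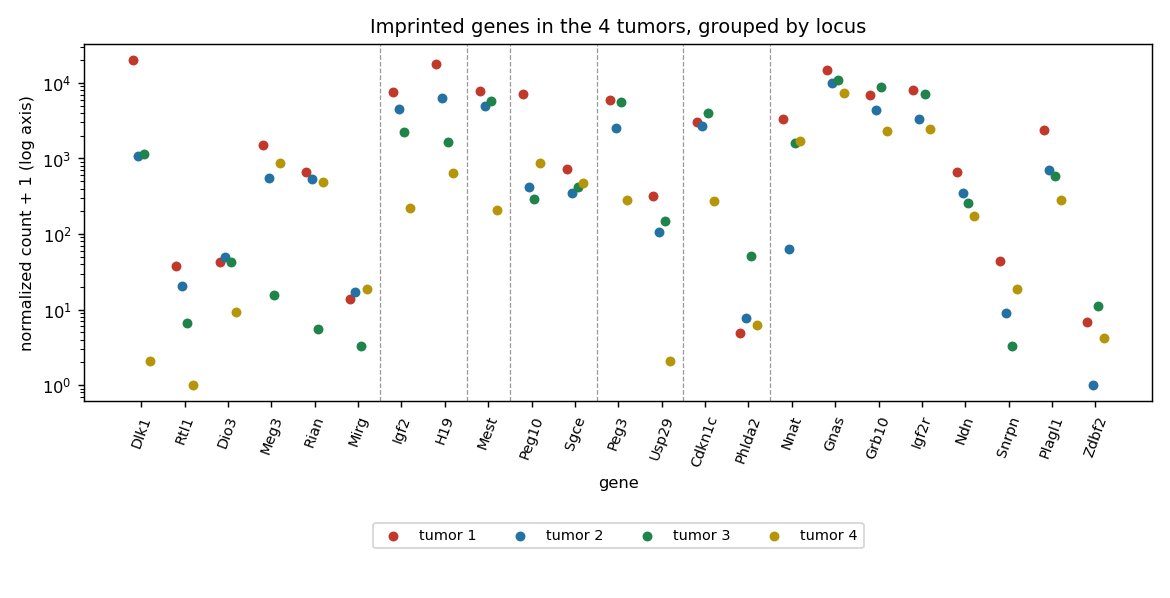
Normalized count plus 1 (y axis, log scale) of 23 imprinted genes (x axis, grouped by locus with dashed lines, the last 8 from separate loci), 1 point per tumor. Dlk1 is at 19984 in tumor 1 and 1.1 in tumor 4, and Meg3 and Rian are low in tumor 3.

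Hox genes, which set position along the body and in the genital tract, varied by cluster. Hoxa13 and Hoxd13, the most posterior genes of their clusters, stood at 595, 506, 1935 and 3.2 and at 505, 137, 2883 and 0 normalized counts. Hoxd12 stood at 249, 82.9, 1119 and 0 and Hoxd11 at 268, 84, 833 and 14.7. In all 4 genes tumor 3 was highest and tumor 4 lowest. Hoxa11, the gene next to Hoxa13, followed another order at 1076, 686, 494 and 24.2, with tumor 1 highest. The D cluster list had means of 7.31, 6.75, 8.46 and 5.24. The C cluster list was the reverse, with 5.37, 6.19, 4.13 and 6.64, lowest in tumor 3. Hoxc11 stood at 60.2, 170.3, 0 and 33.7 and Hoxc6 at 4.9, 93.1, 13.5 and 166. Genes of the B cluster differed less, as Hoxb6 at 199, 836, 573 and 720.4.

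Genes of the Müllerian tract and of steroid hormone action varied more than most. Of those of sufficient level 5 of 18 were shared, beside 60.6% over all genes, and the list had a median SD of 0.95. Esr1, the estrogen receptor, stood at 2389, 2925, 4213 and 1878 normalized counts and Pgr, the progesterone receptor, at 593, 1027, 1376 and 458. Both receptors were highest in tumor 3 and lowest in tumor 4. Wt1, a factor of mesothelium and genital mesenchyme, stood at 137, 374, 1555 and 321, also highest in tumor 3. Wnt7a, a ligand of Müllerian epithelium, stood at 533, 391.8, 319.7 and 2342, highest in tumor 4. Star, which brings cholesterol into mitochondria for steroid synthesis, stood at 50.5, 47.7, 72.1 and 530.0, and the ovarian steroid list as a whole had a median mean of 4.26, near the floor of 3.427. Oocyte genes had a median mean of 4.13.

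Few endothelial genes were shared. Of those of sufficient level 3 of 18 were shared, beside 60.6% over all genes, and the median SD was 0.6. Of the 21 genes 0 stood alone high or low in any tumor. Over all 19435 genes 802 did so, and 19 of the 61 lists held no such gene. The count of 0 therefore does not mark this list. Pecam1, an adhesion protein of endothelium, stood at 2774, 2122, 1669.7 and 1222 normalized counts and Vwf, von Willebrand factor, at 2196, 1208, 478 and 831. Both had tumor 1 highest. The lymphatic genes Lyve1 and Prox1 stood at 667, 52.2, 15.8 and 168 and at 41.8, 29.5, 0 and 10.5, with wider differences and tumor 1 highest again.

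Cartilage and bone genes were low, and single members stood out in different tumors. Col2a1, the main collagen of cartilage, stood at 867, 17, 127 and 3.2 normalized counts, and Col9a2, another cartilage collagen, at 1001, 885, 2219 and 71.5. Sox9, the factor of cartilage cells, stood at 298, 169, 92.3 and 119. Comp, a matrix protein of cartilage and tendon, stood at 0, 5.7, 6.8 and 248, and Alpl, alkaline phosphatase, at 57.3, 245, 139.6 and 2096. Col2a1 was highest in tumor 1, Col9a2 in tumor 3, and Comp and Alpl in tumor 4, so the lists did not move together.

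Position along the genome was examined in genes with a mean of at least 8, as the share of genes on a chromosome for which a tumor was the highest of the 4. On chromosome 15 tumor 2 was highest for 28.0% of 346 genes. On the other autosomes that share was 8.5% to 18.5%. In 4 consecutive blocks of the measured genes of chromosome 15 the share was 20.7%, 36.8%, 34.9% and 19.8%, and the median of tumor 2 minus the median of the tumors was 0.05, 0.15, 0.16 and 0.04 on the log2 scale. The middle blocks were above the outer ones in both measures. For tumor 1 the autosome of largest share was chromosome 6, with 37.0% before 33.5% for the next. For tumor 3 chromosome 18 had 38.8% before 33.6%, and for tumor 4 chromosome 19 had 33.8% before 31.0%. On the X chromosome tumor 3 was highest for 38.4%. The median of tumor 3 minus the median of the tumors was 0.13 on chromosome 18. For tumor 2 on the whole of chromosome 15 it was 0.11. DNA copy number was not measured. Xist, the noncoding RNA of the inactive X chromosome, stood at 21706, 6706, 21076 and 8761 normalized counts in the 4 tumors.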

How the data were processed

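Poly-A RNA of 4 primary tumors was sequenced, 1 library each. Per the submitters' processing notes reads were handled with STAR 2.5.3a, HTSeq, whose version is not named, and FastQC 0.11.5, on GRCm38 (mm10). Strandedness, annotation and transformation are not given in the sources used here, so overlapping and antisense genes cannot be told apart. The authors deposited log2 values whose lowest value, 3.427, marks a gene with 0 reads. Undoing a variance-stabilizing transformation gave whole reads for 100% of values (tolerance 0.05 reads), hence read totals, size factors and normalized counts. Means, SDs and gaps use the deposited log2 values. The counting error of the SD was taken by propagating Poisson counts through this transformation.

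Symbols were matched to GENCODE M21 (98.8%), which gave positions and exon lengths. Of 19435 entries, 25 look like dates and 20 share a symbol, and these were not named. The recovery of reads and the calling rule were tested on simulated data. No test between tumors was made, apart from Dixon's ratio, which marked single values in the closing section. The members and the 61 lists were chosen with earlier results of these data known. Genes were named by rule: the 25 largest SDs, the 25 largest means, the 10 smallest SDs with a mean of at least 10, per tumor the 8 widest upward and 5 widest downward gaps with a highest value of at least 8, up to 4 members per list of largest SD, and a fixed set. Some of these genes are not reported here. The pair rule and the other genes given with values were chosen after their values were seen. The alternatives were another log scale with a pseudocount of 1, quantile normalization, scaling to total reads, a minimum mean of 10 normalized counts and leaving out each tumor. Python 3.11.15, numpy, pandas, scipy and matplotlib were used.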

Additional observations from a re-analysis of the deposited data

Results flagged for a closer look

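Among 93 measures (61 list means, 6 library measures and 26 genes of a fixed set), 10 had a tumor far from the other 3 by Dixon's ratio at its 95% critical value. Chance flags about 1 in 20 independent groups, but these measures overlap, as the red cell list and the globin share do. The lists were also chosen with earlier results of these data known. The number of flags can therefore not be set against chance, and a flag only marks a value. Genes chosen for their gap were left out, apart from those that the fixed set also holds.

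In tumor 1 the mean log2 value of the red cell list was 9.18, that of the ciliated list 6.40, the share of reads in globin genes 0.417% and the log2 value of Lin28b 9.13, each far above the other tumors. In tumor 4 the fat cell list mean was 11.99 and Adipoq was at 12.41. Adipoq had no read in tumors 1 to 3, which fixes its ratio at the highest possible value. The mesothelium list mean of tumor 4 was 7.97 and that of ovarian steroid genes 5.49, both above a narrow range of the other 3 tumors. On the low side, tumor 4 had log2 values of 7.05 for Ovgp1 and 7.29 for Cdkn2a.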

How the results depend on the processing

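Quantile normalization and the filter kept every count and median of the 13 examined within a factor of 1.5 (the median SD within 0.028). Scaling to total reads did so except for 86 genes alone high in tumor 3. On the log2 scale of the normalized count plus 1, which stretches genes with few reads, the median SD was 0.612, 2083 genes differed by at least log2 4, and 125 of the 200 genes of largest SD stayed among the 200. Genes alone high then numbered 376, 337, 229 and 378 in tumors 1 to 4, genes alone low 182, 71, 810 and 657, and genes high in tumors 2 and 4 together 411. The shared genes stayed within the factor on that scale (4889).

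Without 1 tumor the median SD was 0.417 to 0.483, the genes that differed by at least log2 4 were 192 to 412, the shared genes 5511 to 6145, and 102 to 169 of the 200 genes of largest SD stayed. With 3 tumors, fewer others have to be exceeded, so the genes apart from the rest grew: high 148 to 176, 144 to 346, 67 to 130 and 201 to 465 for tumors 1 to 4, and low 26 to 203, 5 to 27, 229 to 530 and 256 to 380. Leaving out tumor 4 gave 346 high genes in tumor 2, and leaving out tumor 2 gave 465 in tumor 4. Of 969 ranges of named genes on another scale, 878 moved by less than 1 SD of the gene. No paired analysis was possible because the labels give no pairs among the tumors. Depth limits genes at or below the floor of 3 counts, where absence and low level look alike.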
